A study of Mus musculus with 12 samples.

Results

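Fibroblasts and the stromal progenitors of adipose tissue are commonly marked by a set of matrix and receptor genes, of which 10 were examined in RNA from sorted endothelial cells: Pdgfra, Dpt, Dcn, Lum, Pi16, Fn1, Fbln1, Mfap5, Postn and Lox. They were taken from the file by symbol, and all 10 were found among the 27825 genes of the deposited file and passed the filter on low values. The cells came from male ROSA26-eYFP+/+ Cdh5-CreERT2+ mice, in which tamoxifen activates a Cre recombinase driven by the endothelial gene Cdh5 and thereby a yellow fluorescent protein. Mice of every group carried both alleles and ate a tamoxifen diet for 2 weeks, starting at 6 weeks of age. Feeding with normal chow (5.8% fat) or a high fat diet (HFD, 60% fat) began at 8 weeks and lasted 12 to 13 weeks. Mesentery, the sheet of tissue through which vessels reach the gut, and the epididymal fat pad, a visceral depot, were digested with Liberase in the presence of actinomycin D, and fluorescent cells were sorted from the pooled tissue of 6 mice. This gave 4 groups of 3 libraries: mesentery on chow, mesentery on HFD, epididymal fat on chow and epididymal fat on HFD. The sample titles call the libraries A, B and C, whereas the protocol speaks of 2 independent replicates, so n = 3 counts libraries, whose spread may in part be technical.

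Fibroblasts build the extracellular matrix, the protein network between cells, and in adipose tissue a stem-like part of them gives rise to new adipocytes. The platelet-derived growth factor receptor alpha, encoded by Pdgfra, is the surface receptor by which such progenitors are usually recognised, and Pi16 and Dpt mark a fibroblast population found in many organs around vessels and in connective tissue sheets. Dcn and Lum encode proteoglycans that bind collagen fibrils, and Fn1, Fbln1, Mfap5, Postn and Lox encode proteins that lay down, organise or cross-link fibrils. Endothelial cells are not the usual source of most of these transcripts, although endothelial cells are known to make fibronectin.

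The files give normalized counts, which are reads per gene divided by a size factor for each library. The libraries held between 8348897 and 25397963 reads on the listed genes, and 3 reads, taken as the floor, equal 2.12 to 4.22 normalized counts depending on the library. Libraries that carry the numbers 87 and 88 in their descriptions (chow replicate C and HFD replicate A, in both tissues) stand apart by number from those numbered 50 to 53, and calls on the 10 genes that change without them are given both ways. The endothelial genes Cdh5 and Pecam1 were high in every library: Cdh5 averaged 3842 ± 1097, 2835 ± 138, 3804 ± 640 and 3120 ± 1320 normalized counts (SD, n = 3) in the order of groups above. Pecam1 averaged 12329 ± 812, 10018 ± 317, 6619 ± 739 and 5083 ± 1394, and was thus lower on average in epididymal fat than in mesentery on each diet.

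Promoter sequences were found in the RefSeq table (build GRCm38.p6) for 5 of the 10 genes, in 7 windows that run from 250 bases before the transcript start to 50 after it. Of these, 3 are shown, from Dpt, Postn and Pdgfra. Dpt and Postn were higher without overlap in epididymal libraries of HFD than in those of chow, and Pdgfra was not. Pi16, whose window is not shown, was higher in the same way as Dpt and Postn. Capitals mark TATAAA or CCAAT on either strand, 5′ to 3′; the Dpt window is chr1:164796413-164796712, the Postn window chr3:54360857-54361156 (the downstream of its 2 windows) and the Pdgfra window chr5:75152001-75152300, all on the plus strand.
Dpt: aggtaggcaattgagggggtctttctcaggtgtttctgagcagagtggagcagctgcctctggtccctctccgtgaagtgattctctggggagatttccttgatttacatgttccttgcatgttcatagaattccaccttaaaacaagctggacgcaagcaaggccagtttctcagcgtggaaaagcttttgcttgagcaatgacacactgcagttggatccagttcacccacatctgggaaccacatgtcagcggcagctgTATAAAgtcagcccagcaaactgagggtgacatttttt
Postn: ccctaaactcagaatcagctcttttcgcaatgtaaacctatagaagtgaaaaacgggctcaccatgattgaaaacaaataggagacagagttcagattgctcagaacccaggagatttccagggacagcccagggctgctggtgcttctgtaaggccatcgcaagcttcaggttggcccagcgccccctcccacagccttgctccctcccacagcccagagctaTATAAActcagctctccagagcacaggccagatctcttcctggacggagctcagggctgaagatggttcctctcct
Pdgfra: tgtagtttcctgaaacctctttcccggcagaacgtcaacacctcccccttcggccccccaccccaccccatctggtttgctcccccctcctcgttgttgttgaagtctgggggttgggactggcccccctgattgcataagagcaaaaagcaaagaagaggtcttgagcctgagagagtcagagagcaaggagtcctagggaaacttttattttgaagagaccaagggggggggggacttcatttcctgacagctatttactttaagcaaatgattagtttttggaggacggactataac
TATAAA began 13 bases after the start in Dpt and at position -26 in Postn. It occurs in 13.6% of the 32851 windows of the table, on either strand. The Pdgfra window held none of the motifs searched, which besides that one were CCAAT (found in 37.4% of windows), TGANTCA (in 7.81%) and CATTCC (in 14.7%), with no overlap between these motifs in the windows shown. CCAAT, or its reverse complement, was found in the other Postn window and in that of Pi16, and neither window held TATAAA. A match describes letters only.

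The first question was how the stromal genes differ between the 2 tissues. All 10 genes were higher on average in epididymal than in mesenteric libraries on each diet. On chow 8 of 10 passed the test as higher in epididymal fat, against 7.32% of all 22238 genes tested that were called higher, and on HFD 10 of 10 passed, against 4.91%. The median log2 difference of the 10 genes was 2.12 on chow and 3.38 on HFD, where the medians of all genes were -0.08 and 0.06. The test was limma on log2(normalized count + 1) with Benjamini-Hochberg adjustment over all genes tested. In bulk RNA, more cells of a type and more RNA per cell cannot be told apart.

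**Figure D1:**
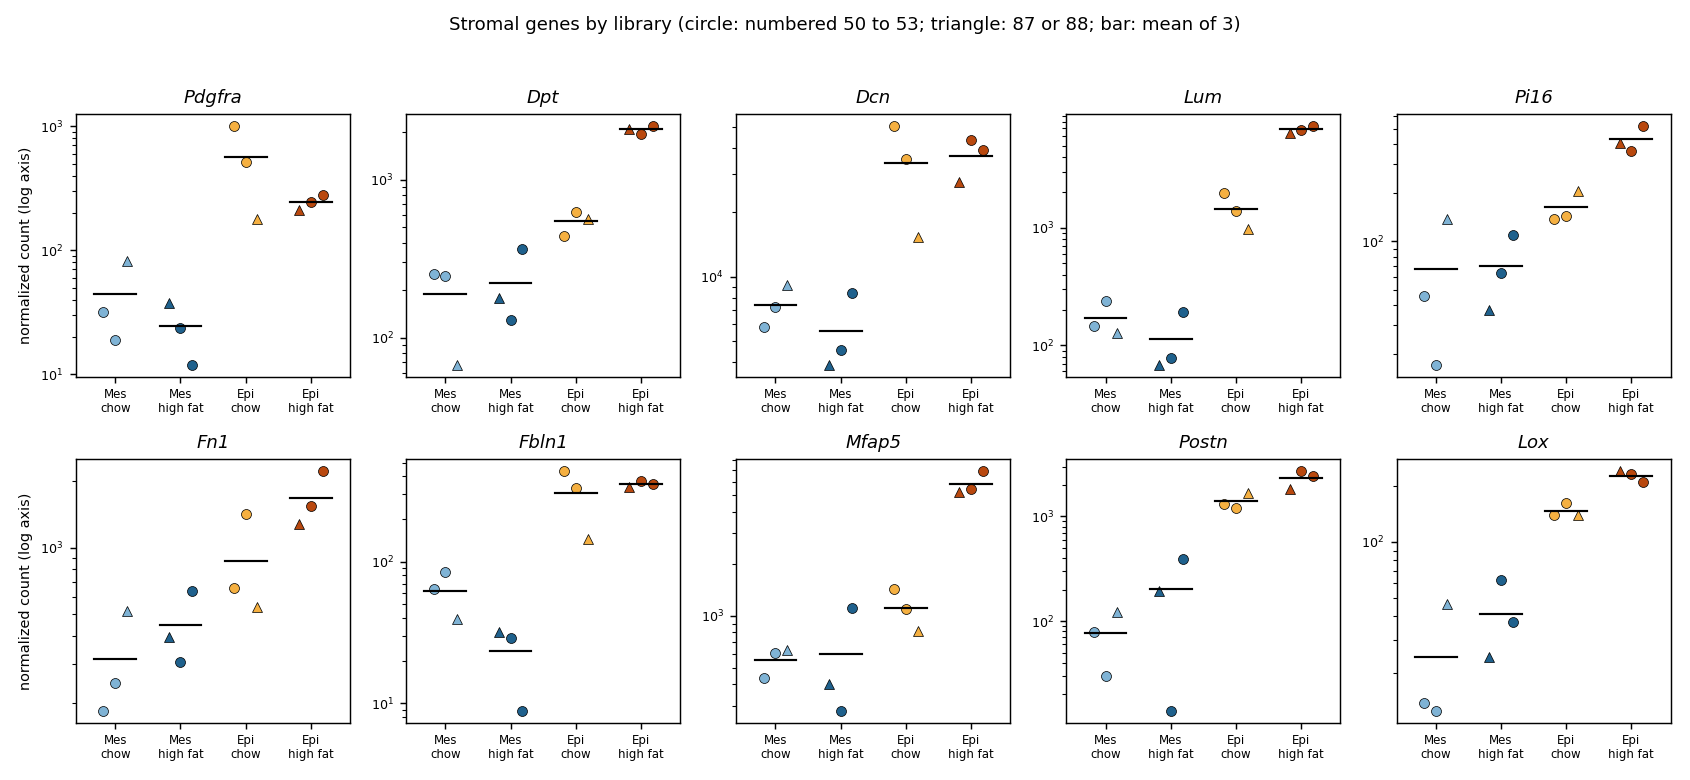
Normalized counts (log axis) of the 10 stromal genes in each library of the 4 groups; circles are libraries numbered 50 to 53, triangles those numbered 87 or 88, and bars are means of 3. The epididymal libraries lie above the mesenteric ones for most genes, and Lum and Mfap5 are higher on HFD than on chow in epididymal fat.

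Pdgfra, the receptor, was low in mesentery, where it rested on 12 to 58 reads a library. Normalized counts of Pdgfra there were 31.9, 18.8 and 81.7 on chow and 37.4, 23.6 and 11.9 on HFD (replicates A, B and C). The epididymal values were 1013, 512 and 178 on chow and 210, 244 and 277 on HFD. No epididymal library was as low as any mesenteric one on either diet. The difference was 3.58 ± 0.64 (SE) on the log2 scale on chow (limma, adjusted p = 0.00268) and 3.40 ± 0.64 on HFD (adjusted p = 0.00561). The chow values of epididymal fat spanned a wider range than those of any other group, with replicate C the lowest, and the range of HFD lay inside it. On HFD the call was lost in 1 of 26 alternatives, a fit with voom weights on recovered reads (adjusted p = 0.164).

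Dcn, which encodes decorin, a small leucine-rich proteoglycan, was the stromal gene with the highest level per kilobase of exon in every group. Its normalized counts were 5838, 7219 and 9123 in mesentery on chow and 3891, 4550 and 8390 on HFD. In epididymal fat they were 50685, 35230 and 15369 on chow and 27526, 43559 and 38796 on HFD. Dcn was thus present in all mesenteric libraries, yet it was higher in every epididymal library, and in epididymal fat the 2 diets overlapped. The tissue difference was 2.05 ± 0.41 on chow (limma, adjusted p = 0.00525) and 2.76 ± 0.41 on HFD (adjusted p = 0.00109). Per kilobase, Dcn averaged 1266 and 961 normalized counts in mesentery (chow, HFD) and 5783 and 6274 in epididymal fat. For comparison on the same per-length scale, Cdh5 averaged 914, 674, 905 and 742 in the order of groups given above.

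Lum, which encodes lumican, a collagen-binding proteoglycan, showed the largest tissue difference of the 10 genes on HFD. In mesentery its normalized counts were 146, 238 and 128 on chow and 68.3, 77.6 and 194 on HFD. In epididymal fat they were 1974, 1400 and 972 on chow and 6455, 6764 and 7409 on HFD. The 4 groups fell in 3 levels: the mesenteric groups overlapped, the epididymal chow group was above them, and the epididymal HFD group was above that. The tissue difference was 3.07 ± 0.37 on chow (limma, adjusted p = 1.47e-04) and 6.07 ± 0.37 on HFD (adjusted p = 6.73e-07), the latter 67.3-fold. Dcn and Lum are neighbouring genes in the RefSeq annotation, with Kera and Epyc beside them; Epyc, which encodes epiphycan, was also higher in epididymal fat on HFD (113 ± 35.0 against 11.0 ± 11.9, log2 difference 4.12, adjusted p = 0.0318). On chow Epyc differed by 2.52 ± 1.08 and did not pass (limma, adjusted p = 0.158). Kera was not found by symbol in the deposited file.

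Dpt encodes dermatopontin, a matrix protein, and Pi16 a peptidase inhibitor. Dpt gave 255, 246 and 67.6 normalized counts in mesentery on chow and 179, 129 and 366 on HFD. In epididymal fat it gave 443, 626 and 565 on chow and 2094, 1955 and 2199 on HFD. The epididymal groups were apart from the mesenteric groups and from each other. The tissue difference was 1.73 ± 0.46 on chow (limma, adjusted p = 0.0245) and 3.35 ± 0.46 on HFD (adjusted p = 5.85e-04). Pi16 gave 45.5, 17.0 and 138 in mesentery on chow and 37.4, 63.8 and 109 on HFD. In epididymal fat it gave 137, 144 and 205 on chow and 406, 365 and 524 on HFD. On chow the highest mesenteric and the lowest epididymal library overlapped for Pi16, and the difference did not pass (1.72 ± 0.60, limma, adjusted p = 0.0801), whereas it passed on HFD (2.72 ± 0.60, adjusted p = 0.0137). With only the libraries numbered 50 to 53, the Pi16 difference on chow was 2.29 (limma, adjusted p = 0.00955) and that of Dpt was 1.07 (adjusted p = 0.0912). Pi16 passed on chow without mesenteric chow replicate C, the highest of its group (adjusted p = 0.00411), and did not pass on HFD without epididymal HFD replicate C, mesenteric HFD replicate A or B (adjusted p of 0.0733, 0.0593 and 0.0546).

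Fn1 encodes fibronectin, Fbln1 the fibronectin-binding glycoprotein fibulin-1, and Mfap5 a glycoprotein of the microfibrils around elastic fibres. Fn1 had the smallest tissue difference of the 10 genes on HFD. Its normalized counts were 184, 246 and 517 in mesentery on chow and 396, 305 and 640 on HFD. In epididymal fat they were 656, 1424 and 541 on chow and 1278, 1533 and 2208 on HFD. The tissue difference of Fn1 was 1.47 ± 0.42 on chow (limma, adjusted p = 0.0365) and 1.93 ± 0.42 on HFD (adjusted p = 0.0139). Fn1 did not pass on chow without mesenteric chow replicate A or B or mesenteric HFD replicate A (adjusted p of 0.157, 0.106 and 0.0520), nor on HFD without epididymal HFD replicate C, mesenteric HFD replicate A or B (0.0790, 0.0505 and 0.0769). Fbln1 was low in mesentery, with 63.8, 84.2 and 39.4 normalized counts on chow and 31.8, 29.1 and 8.89 on HFD. In epididymal fat Fbln1 gave 435, 332 and 145 on chow and 336, 371 and 355 on HFD. All epididymal values of Fbln1 were above all mesenteric ones, and the differences were 2.19 ± 0.51 (limma, adjusted p = 0.0131) and 4.05 ± 0.51 (adjusted p = 3.14e-04).

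Mfap5 gave 432, 604 and 634 normalized counts in mesentery on chow and 399, 281 and 1111 on HFD. In epididymal fat it gave 1424, 1097 and 812 on chow and 5203, 5451 and 6879 on HFD. On chow the tissues did not overlap, yet the difference of 0.98 ± 0.39 did not pass (limma, adjusted p = 0.131; 0.0203 without mesenteric HFD replicate C). On HFD the difference was 3.53 ± 0.39 (adjusted p = 1.12e-04). The groups did not overlap for 9 of 10 genes on chow and for 10 of 10 on HFD, with the epididymal libraries higher each time; this was so for 16.0% and 15.1% of all genes.

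Postn encodes periostin, a matricellular protein of remodelling tissue, and Lox lysyl oxidase, the enzyme that starts the cross-linking of collagen and elastin. Postn gave 78.6, 29.6 and 121 normalized counts in mesentery on chow and 195, 13.9 and 394 on HFD. In epididymal fat it gave 1325, 1207 and 1661 on chow and 1846, 2700 and 2416 on HFD. Relative to their mean, the mesenteric libraries on HFD varied more for Postn (201 ± 190, SD, n = 3) than for the other members. The epididymal libraries were above all of the mesenteric ones. The tissue difference was 4.38 ± 0.88 on chow (limma, adjusted p = 0.00537) and 4.45 ± 0.88 on HFD (adjusted p = 0.00737). Lox gave 13.7, 12.5 and 46.5 in mesentery on chow, 24.3, 62.4 and 37.5 on HFD, and in epididymal fat 139, 162 and 139 on chow and 239, 230 and 210 on HFD. Its difference was 2.80 ± 0.50 (limma, adjusted p = 0.00269) and 2.52 ± 0.50 (adjusted p = 0.00787). Without epididymal chow replicate A, or without replicate B, 5 of the 10 genes passed on chow: Dpt, Fn1 and Fbln1 no longer did (adjusted p of 0.0547, 0.0725 and 0.0787 without A, and 0.0934, 0.174 and 0.0654 without B).

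**Figure D2:**
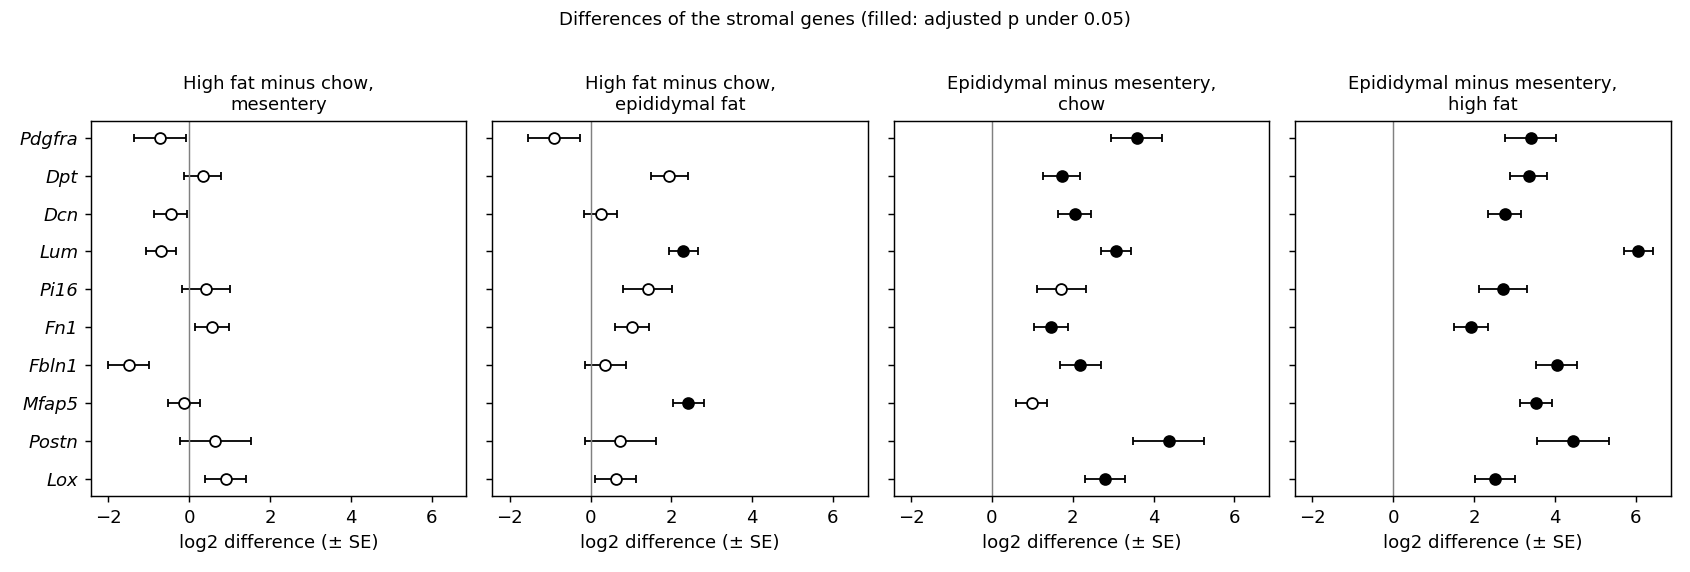
Log2 differences (± SE, limma) of the 10 stromal genes for the effect of diet in each tissue and of tissue on each diet; filled points passed at an adjusted p under 0.05. On HFD all 10 genes passed as higher in epididymal fat; of the diet effects, only Lum and Mfap5 in epididymal fat passed.

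The second question was what HFD did within each tissue. In epididymal fat Lum and Mfap5 rose, by 2.30 ± 0.37 and 2.42 ± 0.39 on the log2 scale, which is 4.94-fold and 5.35-fold (limma, adjusted p = 0.0135 and 0.0145). These 2 of 10 genes compare with 0.418% of all genes called higher. Each was higher in every epididymal library of HFD than in any of chow, as shown by the values above. The same absence of overlap was seen for Dpt, Pi16, Postn and Lox, so that 6 of 10 genes were apart and higher, against 6.93% of all genes. Dpt had a difference of 1.95 ± 0.46 (limma, adjusted p = 0.0998), Pi16 1.41 ± 0.60 (adjusted p = 0.598), Postn 0.73 ± 0.88 and Lox 0.62 ± 0.50 (both adjusted p = 1.00), none of which passed. The median over the 10 genes was 0.88, against 0.10 over all genes.

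Dcn, Fbln1 and Pdgfra did not show this order. Dcn gave 33761 ± 17704 normalized counts on chow and 36627 ± 8234 on HFD (SD, n = 3), a log2 difference of 0.25 ± 0.41 (limma, adjusted p = 1.00). Fbln1 gave 304 ± 147 and 354 ± 17.4, a difference of 0.36 ± 0.51. Pdgfra was the only member with a negative difference in epididymal fat, -0.90 ± 0.64 (568 ± 421 on chow and 244 ± 33.3 on HFD), and Fn1 differed by 1.03 ± 0.42 (limma, adjusted p = 0.570) with overlapping libraries. The chow libraries of these 4 genes spread widely, with replicate C the lowest for each and replicate B the highest for Fn1.

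Lum and Mfap5 passed in 20 of 26 alternative analyses, with adjusted p between 1.18e-06 and 0.154 for Lum and between 2.33e-06 and 0.166 for Mfap5. Neither passed with edgeR's quasi-likelihood test on recovered reads (adjusted p = 0.0768 for both) or with the libraries numbered 50 to 53 alone, in which the log2 differences were 2.09 and 2.29 (limma, adjusted p = 0.111 and 0.166). The 2 genes also did not pass without epididymal HFD replicate A (adjusted p = 0.0576 and 0.0549), without replicate C (0.0997 and 0.105) and without epididymal chow replicate C (0.0585 and 0.0629). Dpt passed in 4 of the 26, among them DESeq2 (adjusted p = 0.00160) and limma without mesenteric chow replicate C (0.0121), with adjusted p between 0.00160 and 0.435.

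In mesentery none of the 10 genes passed for diet (0 of 10, against 0.0135% of all genes in either direction), and 5 had a positive and 5 a negative difference, with a median of 0.10. By limma, 1 of the 10 had an unadjusted p under 0.05, as did 6.15% of all genes. That gene was Fbln1, with 62.5 ± 22.4 normalized counts on chow and 23.3 ± 12.5 on HFD, a difference of -1.50 ± 0.51 (limma, adjusted p = 0.654). It was also the 1 gene whose libraries did not overlap, with those of HFD lower, as for 5.14% of all genes. The lowest of its libraries rested on 9 reads. Lum (-0.70 ± 0.37), Pdgfra (-0.72 ± 0.64) and Dcn (-0.46 ± 0.41) had negative differences and Lox (0.90 ± 0.50), Postn (0.65 ± 0.88) and Fn1 (0.57 ± 0.42) positive ones, all with overlapping libraries. Dpt, Pi16 and Mfap5 differed by 0.33, 0.41 and -0.13. DESeq2 and edgeR called none of the 10 either.

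Whether the diet effect differed between the tissues was tested with an interaction term. None of the 10 genes passed with limma (0.00450% of all genes did), and 4 had an unadjusted p under 0.05, as did 4.71% of all genes. Lum differed by 3.00 ± 0.52 (limma, adjusted p = 0.151), Mfap5 by 2.55 ± 0.56 (adjusted p = 0.285), Fbln1 by 1.86 ± 0.72 (adjusted p = 0.924) and Dpt by 1.62 ± 0.65 (adjusted p = 0.959). With DESeq2 on the recovered reads Lum and Mfap5 passed (2.85, adjusted p = 3.05e-04, and 2.30, adjusted p = 0.0203), and with edgeR they did not (adjusted p = 0.501 and 0.791). Without mesenteric HFD replicate C both passed with limma (3.47 and 3.13, adjusted p = 0.0144 for both); that library had the highest Lum and Mfap5 of its group.

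Because Dcn varied widely between the chow libraries of epididymal fat, the other genes were also set against Dcn of the same library, a comparison chosen after the values were seen and given without a test. These are ratios of normalized counts, not per length, and serve to compare libraries. In epididymal fat Lum was 3.89, 3.97 and 6.33% of Dcn on chow and 23.5, 15.5 and 19.1% on HFD. Mfap5 was 2.81, 3.11 and 5.28% on chow and 18.9, 12.5 and 17.7% on HFD, and Dpt 0.875, 1.78 and 3.67% against 7.61, 4.49 and 5.67%. On this scale the diets did not overlap for these 3 genes, which were higher on HFD, nor for Pdgfra, which was lower, and they overlapped for the other 5: Pi16, Fn1, Fbln1, Postn and Lox. The share of all genes that are apart on this scale was not computed, so these counts have nothing to be set against. All the ratios of a library also share 1 denominator. Pi16 averaged 0.672 ± 0.579% of Dcn on chow and 1.22 ± 0.338% on HFD (SD, n = 3), and Lox 0.546 ± 0.324% and 0.646 ± 0.194%; like Postn, both had been apart in normalized counts.

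Fbln1 kept nearly the same ratio to Dcn in epididymal fat, 0.858, 0.942 and 0.944% on chow and 1.22, 0.851 and 0.916% on HFD. Pdgfra was 2.00, 1.45 and 1.16% of Dcn on chow and 0.764, 0.561 and 0.713% on HFD, lower in every library of HFD. Postn overlapped between the diets on this scale, with 2.61, 3.43 and 10.8% on chow and 6.71, 6.20 and 6.23% on HFD. In mesentery Lum was between 1.40 and 3.30% of Dcn on either diet. Dcn made up 81.8 ± 6.40% of the summed counts of the 10 genes in epididymal fat on chow and 64.2 ± 4.36% on HFD, and 83.0 ± 0.696% and 76.9 ± 4.60% in mesentery.

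**Figure D3:**
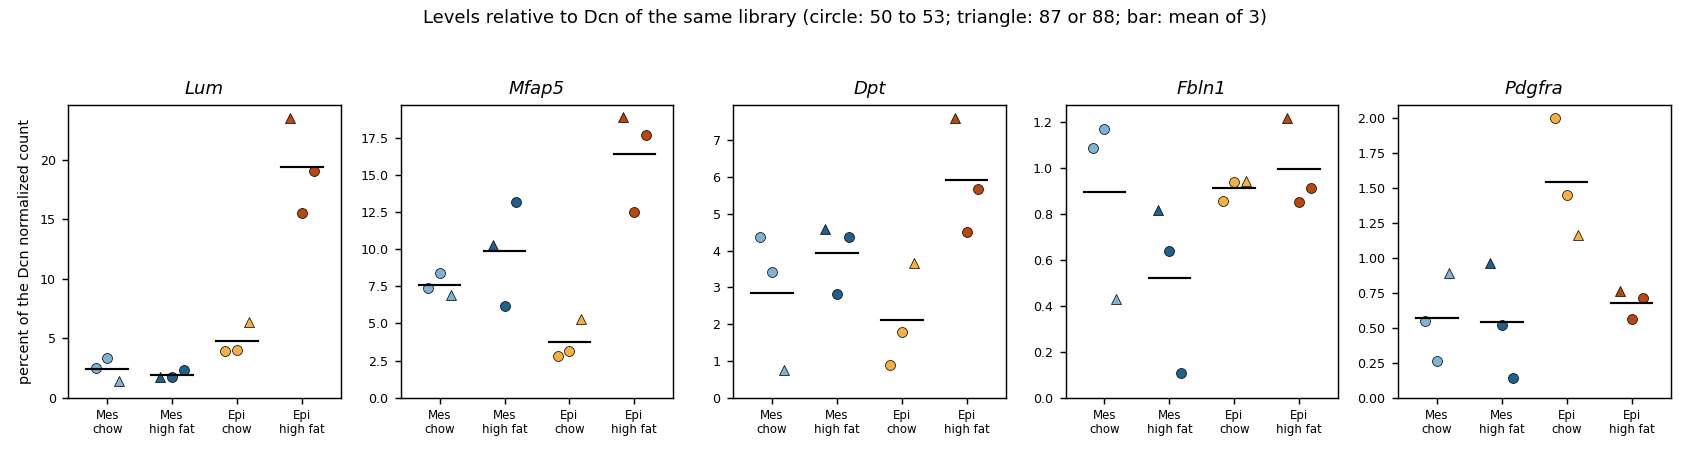
Normalized counts of single stromal genes as a percent of the Dcn count of the same library (linear axis from 0), by group; circles are libraries numbered 50 to 53, triangles those numbered 87 or 88, bars means of 3. Lum is between 15.5 and 23.5% of Dcn in epididymal fat on HFD and between 3.89 and 6.33% on chow.

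Within the 6 epididymal libraries, the Pearson correlation of each gene with the mean of the other members on the log2 scale was 0.964 for Lum, 0.950 for Mfap5, 0.872 for Lox, 0.844 for Dpt, 0.800 for Fn1, 0.733 for Pi16, 0.693 for Postn and 0.617 for Fbln1. It was 0.481 for Dcn and -0.280 for Pdgfra. Within the 6 mesenteric libraries it was lower for most members: 0.712 for Mfap5, 0.682 for Fn1, 0.652 for Dcn, 0.578 for Pi16 and 0.554 for Postn, but 0.187 for Lum, 0.094 for Lox, -0.068 for Pdgfra, -0.338 for Dpt and -0.739 for Fbln1. These are descriptions over 6 libraries of 2 diets each. The genes most like the mean of the 10 over the 12 libraries, among 9819 candidates, were Smoc2 (r = 0.986), Fth1 (0.981), Cd302 (0.979), Timp2 (0.978), Cks1b (0.978) and Col1a2 (0.977). Within tissues the order differed: over the 6 epididymal libraries r was 0.831 for Smoc2 and 0.930 for Fth1, and over the 6 mesenteric ones 0.925 and 0.449.

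On a per-length scale the members of epididymal fat on HFD ranked Dcn 6274, Lum 2809, Mfap5 1628, Dpt 1208, Postn 267, Fn1 143, Fbln1 81.1, Pi16 67.8, Lox 47.3 and Pdgfra 24.3 mean normalized counts per kilobase of exon. On chow the order of the first 4 was Dcn 5783, Lum 592, Dpt 316 and Mfap5 310. Pecam1 on the same scale averaged 816 on HFD and 1063 on chow. By these means Lum, Mfap5 and Dpt lay below Pecam1 on chow and above it on HFD in epididymal fat, with Pecam1 itself lower on HFD. Ranks between genes on this scale depend on the annotated exon lengths.

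Other genes of the same stromal programmes were counted from lists. For comparison, of all 22238 genes tested 1627 were called higher and 1216 lower in epididymal fat on chow. On HFD these numbers were 1092 and 762. For diet in epididymal fat 93 were called higher and 29 lower. Of 20 other fibroblast markers, 17 were higher and 1 lower in epididymal fat on chow, and 16 were higher and 1 lower on HFD, with medians of 2.58 and 3.37. The leading genes were the collagen VI chains Col6a2 (4.44) and Col6a1 (3.61) and Serpinf1 (4.09), which encodes an anti-angiogenic serpin, on chow, and Col3a1 (4.98) and Clec3b (4.98) on HFD; the gene that was lower was Col15a1 (-2.64 and -1.70), a basement membrane collagen. For diet in epididymal fat 1 of the 20 passed, Col3a1, the chain of collagen III, which rose from 1375 ± 390 to 7577 ± 596 normalized counts (limma, 2.50 ± 0.31, adjusted p = 0.00375). With the libraries numbered 50 to 53 alone Col3a1 differed by 2.24 and did not pass (adjusted p = 0.0763).

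Of 20 adipose stromal progenitor markers, 5 were higher and 3 lower in epididymal fat on each diet. Pdgfrb, the beta receptor, was among the higher (5.25 and 3.31), as were Wnt2 on chow (103 ± 111 normalized counts against 1.32 ± 1.42 in mesentery, below the floor of 3 reads) and F3, tissue factor, on HFD (3.71). Cd34 (-0.98 and -1.08), Sema3c (-1.88 and -1.61) and Fmo2 (-1.42 and -2.06) were lower. In mesentery on chow Cd34 averaged 11576 ± 1067 normalized counts, near the level of the endothelial gene Pecam1 (12329 ± 812). Of the 5 PDGF ligands and receptors, 3 were higher and 1 lower on chow and 1 higher and 2 lower on HFD; Pdgfb, a ligand made by endothelial cells, was lower on each (-1.20 and -1.12). No gene of these 2 lists passed for diet in either tissue.

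Of 9 small leucine-rich proteoglycans other than Dcn and Lum, 7 were higher in epididymal fat on each diet, led by Aspn (5.62) and Fmod (4.34) on chow and by Podn and Epyc (4.12) on HFD; none passed for diet. Podn averaged 120 ± 17.2 normalized counts in epididymal fat on HFD and 0.659 ± 1.14 in mesentery, below the floor of 3 reads. Of the 4 other lysyl oxidases, 2 were higher on chow, Loxl3 (3.88) and Loxl1 (2.73), and 1 on HFD, Loxl1 (4.33). Of 6 other fibulins, 4 were higher and 2 lower on each diet, with Efemp1 higher (4.01 and 3.70) and Hmcn1 and Fbln2 lower. Of 12 elastic and microfibril genes, 2 were higher and 1 lower on chow and 4 higher and 1 lower on HFD. Mfap4 led the higher ones (6.39 and 5.40), and the lower gene was Mfap2 on each diet (-2.08 and -1.58).

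Of 13 mesenchymal transcription factors tested, 7 were higher and 2 lower in epididymal fat on chow and 6 and 2 on HFD, led by Tcf21 (6.92 and 4.55), a factor of visceral stromal cells; Meox1 and Snai2 were lower on each diet. Of 12 activated fibroblast markers, 3 were higher and 1 lower on chow and 4 were higher on HFD. The lower gene on chow was Spp1 (-2.81 ± 0.73, limma, adjusted p = 0.0225), with 1165 ± 1080 normalized counts in mesentery. In mesentery on HFD Spp1 averaged 4282 ± 4391. For diet in epididymal fat 1 of these 12 passed, Spp1 (133 ± 50.1 on chow and 4060 ± 1301 on HFD, limma, 4.94 ± 0.73, adjusted p = 0.00839), which encodes osteopontin and is also made by macrophages. Spp1 did not pass with limma without epididymal HFD replicate C (adjusted p = 0.0685) or with the libraries numbered 50 to 53 alone (0.0611). It also did not pass with edgeR (adjusted p = 0.0686) or with limma without the mean-variance trend (0.119). Of 11 TGF-beta induced matrix genes, 4 were higher and 2 lower on chow and 2 and 2 on HFD, and none passed for diet.

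Markers of other cell types moved with the same comparisons. The summed normalized counts of the 10 stromal genes ranged from 7088 to 10896 in mesentery on chow, 5258 to 11261 on HFD, 20586 to 58231 in epididymal fat on chow and 45594 to 63172 on HFD. Over the same groups 10 mural markers summed to 1322 to 1922, 2137 to 3878, 14917 to 19291 and 6242 to 10706, and 12 macrophage markers to 2587 to 11023, 6766 to 26047, 6498 to 82554 and 131437 to 324458. In epididymal fat on chow the macrophage sums were 9548, 82554 and 6498 (replicates A, B and C), and Lyz2 gave 68477 in replicate B. On HFD Lyz2 averaged 156695 there (mean sum 212180). Mural markers were higher in epididymal fat for 9 of 10 on chow and 5 of 10 on HFD, and macrophage markers for 2 and 7 of 12. Of 12 adipocyte markers, 9 were higher on chow (median 3.52) and none on HFD, where 1 was lower (median 0.34). They summed to 119872 to 147308, 118700 to 168786, 375629 to 594715 and 324145 to 480497. On chow most of this sum was Fabp4, which averaged 127841 in mesentery (mean sum 133833) and 421031 in epididymal fat (mean sum 497365). Fabp4 itself did not pass on chow (limma, 1.69 ± 0.52, adjusted p = 0.0505). Wt1, a mesothelial marker, was at 0 in all 3 mesenteric chow libraries, and 9 mesothelial markers summed to 297 to 1000, 329 to 907, 1320 to 2081 and 474 to 889. No list defined by another cell type was at 0 as a whole.

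In the epididymal comparison of diets, in which Lum and Mfap5 rose, 11 of 12 macrophage markers had positive differences with a median of 2.66 and none passed; all 10 mural markers had negative ones, and 1 passed (Kcnj8, -1.94). All 12 adipocyte markers had negative differences and 3 fell (Cfd, -5.84, Retn, -3.31, and Adipoq, -2.65), and of 12 proliferation genes 2 rose (Birc5, 2.55, and Cdk1, 2.43). Without epididymal HFD replicate C, Adipoq, Birc5 and Cdk1 did not pass (limma, adjusted p of 0.0685, 0.322 and 0.0730), and Birc5 also lost its call when any 1 of 6 other libraries was left out. With the libraries numbered 50 to 53 alone neither Birc5 (adjusted p = 0.123) nor Cdk1 (0.0969) passed. Pan-endothelial markers summed to 92121 to 110337 on chow and 52148 to 96790 on HFD in epididymal fat. Their median difference for diet there was -0.41, and none of 15 passed. In mesentery they summed to 131951 to 186237 on chow and 124922 to 146778 on HFD. On chow 7 of the 15 were lower in epididymal fat, against 1216 of all 22238 genes tested. They were led by Sox18 (-1.74), Emcn (-1.72) and Kdr (-1.54), and Pecam1 was among them (limma, -0.90 ± 0.21, adjusted p = 0.0133). On chow 2 were higher (Cldn5, 4.25, and Vwf, 1.94). On HFD 9 were lower, against 762 of all genes, led by Emcn (-2.53), Kdr (-1.81) and Sox18 (-1.69), and 1 was higher (Cldn5, 2.50). The part of these cell types in the results on the stromal genes was not tested.

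**Figure D4:**
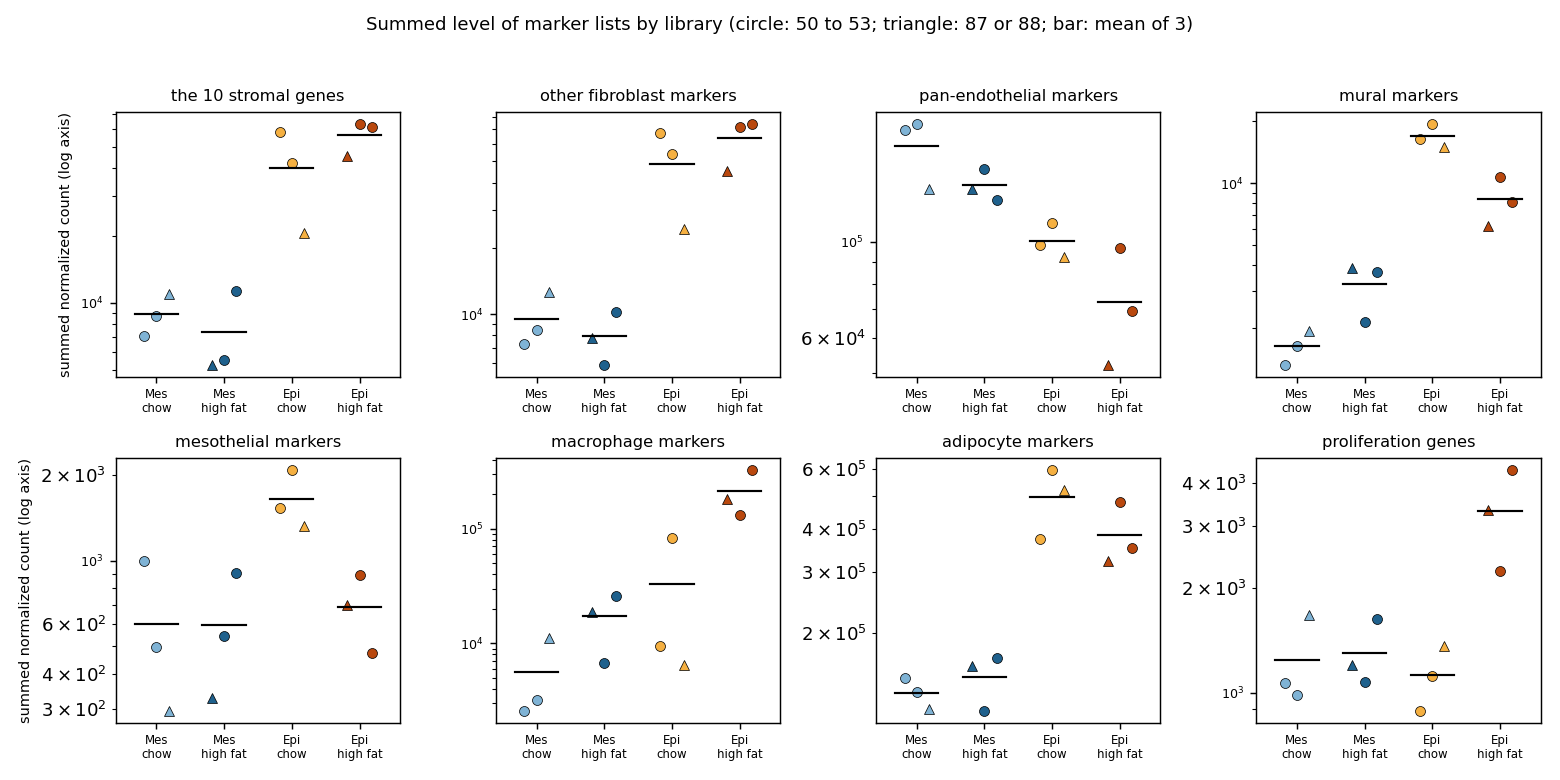
Summed normalized counts (log axis) of the 10 stromal genes and of marker lists of other cell types in each library; circles are libraries numbered 50 to 53, triangles those numbered 87 or 88, bars means of 3. The stromal sum in epididymal fat ranges from 20586 to 58231 on chow and from 45594 to 63172 on HFD, while the macrophage sum ranges from 6498 to 82554 and from 131437 to 324458. The macrophage sum of 82554 on chow is replicate B, against 9548 in A and 6498 in C.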

How the data were processed

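Bulk RNA-seq of sorted endothelial cells gave 12 libraries in 4 groups of 3, taken from the sample titles. The deposited values are a signal: read counts divided by a size factor per library. Per the submitters' processing notes, STAR 2.7.9a, featureCounts and DESeq2 1.34.0 and the build mm39 were used; annotation and strand setting are not given in the sources used here. Every value (100%) was a whole number of reads times its library's step, within 0.001 reads; no gene had fewer than 51 reads in total.

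Values were tested with limma 3.58.1 (R 4.3.3; lmFit, eBayes with a mean-variance trend) on log2(normalized count + 1), which understates changes of low genes. Genes with a mean under 10 were left out, which kept 22238. The 4 group means gave 5 contrasts; p-values were adjusted by Benjamini-Hochberg over all genes, with a threshold of 0.05. All differences called log2 are on this scale, epididymal minus mesentery or high fat diet minus chow. edgeR 4.0.16 and DESeq2 1.42.0 were run on the recovered reads, among 26 alternatives. Levels per length use the union of all exons of a gene in GENCODE M21 (GRCm38), another build than the files'. Reads carry no molecular identifiers, so floors cover counting error only. All 10 genes are named; from each list, names were taken from the up to 3 genes per contrast and direction with the largest change among those that passed (2 where none did), and others were chosen after their values were seen. The 10 genes, the lists and the tests were chosen with earlier results of these data known. The code was tested on simulated data.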

Additional observations from a re-analysis of the deposited data

How the results depend on the processing

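Of the members' log2 differences under 26 alternatives, 1210 kept their direction and side of the threshold, 36 no longer passed, 14 newly passed and 30 changed sign, none of the last from a called value. The number of members called for diet in epididymal fat (2) was 0 with edgeR, 0 without the mean-variance trend, 0 with libraries 50 to 53 alone and 4 with only the compared groups; leaving out 1 library gave 0 to 3 (0 without epididymal HFD A or C, or epididymal chow C). For tissue on chow (8) leaving out 1 library gave 5 to 9; for the interaction (0) DESeq2 gave 2 and leaving out 1 library 0 to 2. For diet in mesentery, signs changed for Dpt (-0.21 with libraries 50 to 53 alone; -0.30 to 0.65 leaving out 1 library), Pi16 (-0.31 to 1.16), Postn (-0.31 to 2.06) and Mfap5 (0.00 rescaled to the same total, 0.13 with edgeR, 0.10 with DESeq2, 0.13 with libraries 50 to 53 alone, -0.71 to 0.28 leaving out 1 library). For diet in epididymal fat they changed for Dcn (-0.04 with libraries 50 to 53 alone, -0.23 to 0.63) and Fbln1 (-0.07, -0.10 to 0.69). For the interaction they changed for Pdgfra (-0.85 to 0.40), Fn1 (-0.12 with libraries 50 to 53 alone), Lox (-0.87 to 0.06) and Postn (-0.20 rescaled, -0.70 with edgeR, -0.66 with DESeq2, -0.42 with voom, -1.33 to 1.03). The cause was not tested. Rescaling to the same total moved the median of all genes by 0.123, 0.126, 0.0714, 0.169 and 0.256 (the diet effect in mesentery and in epididymal fat, the tissue effect on chow and on HFD, and the interaction), and the share of calls that were higher from 76.2 to 61.5%, 57.2 to 67.3% and 58.9 to 35.4% for the second to the fourth; the members called were then 2 for diet in epididymal fat, 8 and 10 for tissue.

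The replicate block was the replicate letter for the diet effects, and the description number for the tissue effects and the interaction. With it, 2 members were called for diet in epididymal fat and 9 and 10 for tissue on chow and HFD. For diet in mesentery and the interaction 0 were called. Same-numbered libraries correlated in their deviations at 0.027, 0.53 and 0.583 on chow and -0.149, 0.146 and -0.115 on the HFD. The main fit did not take the numbers as pairs. Whether libraries of the same number came from the same mice was not tested. Depth limits Fbln1, Postn, Pdgfra, Lox and Pi16 in mesentery, where the lowest library held 9, 10, 12, 12 and 19 reads.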
